A study of Mus musculus with 31 samples.

Results

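Monocytes taken from Lewis lung carcinoma (LLC) tumors were compared with monocytes taken from the blood of mice bearing such tumors. LLC is a transplantable mouse lung carcinoma cell line, grown here under the skin of C57BL/6J mice. The comparison rests on 6 RNA-seq libraries of the 31 samples in the series, 3 labelled LLC tumor and 3 labelled LLC blood, taken by those labels. A further 3 libraries from the blood of healthy C57BL/6J mice entered the fit too, where they shared in the filter on low counts, the scaling and the estimate of the spread; with the 6 libraries alone, 6692 of 11827 genes tested were called. All cells were sorted as CD11b+ Ly6G- Ly6Chi MHC-II-, so every group is a gated population and genes behind the gate carry no finding. The labels give no age, no days of tumor growth and no link between a blood library and a tumor library, so blood and tumor of the same animal could not be paired. The blood columns are headed BM; this was taken to mean blood monocyte, since the sample titles say blood.

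Ly6C-high monocytes are short-lived white blood cells made in the bone marrow. They leave the blood into inflamed tissue and tumors through the chemokine receptor CCR2, and there they turn into macrophages. Inside a tumor they meet low oxygen, lactate, dying cells and cytokines. Macrophages of tumors are known for making matrix proteins and proteases, angiogenic factors and molecules that restrain T cells.

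The 6 libraries held 10457492 to 20706412 counts. LLC tumor 2 and LLC tumor 3 were most alike among the tumor libraries (Pearson r of log2 levels across genes 0.988), while LLC tumor 1 stood apart from both (0.960 and 0.965). The blood libraries correlated at 0.973 to 0.994, and blood with tumor at 0.780 to 0.850. LLC tumor 1 also had the lowest scaling factor, 0.798 against 0.968 and 1.00. Some genes were high in LLC blood 1 alone among the blood libraries. Col1a1, the main chain of type I collagen, stood at 212, 0.0692 and 0 CPM (read counts scaled to a common library total) in LLC blood 1 to 3, and Hspa1a, a stress-induced chaperone, at 419, 17.4 and 10.9 CPM. Values without these libraries are given below for some of the results that they touch.

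Of 12337 genes tested, 7566 (61.3%) differed between tumor and blood at an adjusted p under 0.05. Of these, 3652 (29.6% of the genes tested) were higher in tumor and 3914 (31.7%) were lower. The sizes were unequal. At least a 2-fold rise was called for 2131 genes (17.3%) and a fall of that size for 1407 (11.4%); at 4-fold the counts were 1348 (10.9%) and 343 (2.78%), and at 8-fold 999 (8.1%) and 88 (0.713%). Scaling by library totals alone called 2859 genes higher and 5007 lower, and moved the median log2 fold change of all genes from -0.03 to -0.23. The plain CPM levels printed below carry that shift: for 23.5% of the genes every tumor library lay above every blood library, and for 44.8% every tumor library lay below. In bulk samples, fewer cells of a type and less RNA per cell cannot be told apart.

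**Figure D1:**
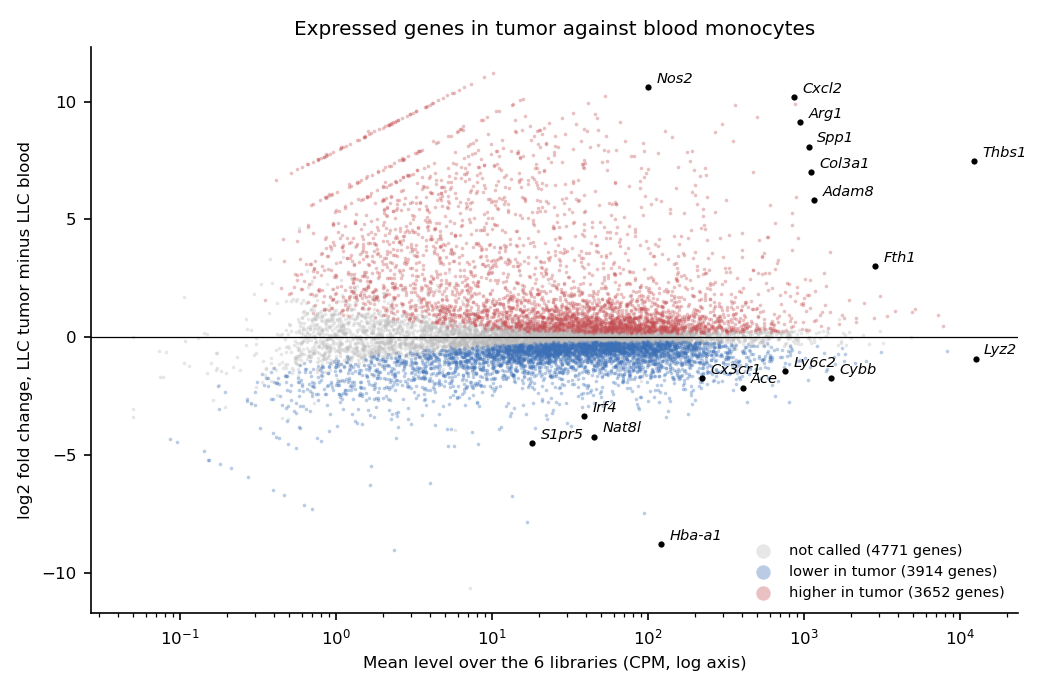
Each point is 1 of the 12337 genes tested, with its mean level over the 6 libraries (CPM, log axis) against its log2 fold change, LLC tumor minus LLC blood; red genes were called higher (3652), blue genes lower (3914) and grey genes were not called. The rises reach further from 0 than the falls.

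The most abundant gain was Thbs1, which encodes thrombospondin-1, a secreted matrix glycoprotein that binds CD36 and CD47 and can activate latent TGF-beta. It stood at 201, 100.6 and 173 CPM in LLC blood 1 to 3 and at 24854, 23644 and 24772 CPM in LLC tumor 1 to 3 (log2 fold change 7.48 ± 0.36 (SE), BH-adjusted p = 4.2e-07). A single gene thus took 2.49%, 2.36% and 2.48% of all counts in the tumor libraries, which hardly differed from each other, against 0.0101% to 0.0201% in LLC blood. In healthy blood it stood at 131, 80.6 and 97.9 CPM.

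Among the other genes with the largest gains in CPM were iron storage, cytoskeletal and secretory genes. Fth1, the heavy chain of ferritin, rose from 708, 726 and 751 CPM in blood to 6181, 4053 and 4758 CPM in tumor (log2 fold change 3.01 ± 0.22 (SE), BH-adjusted p = 4.1e-06). Srgn, the core protein of the granule proteoglycan serglycin, rose from 246, 256 and 264 to 3709, 2049.8 and 2224 CPM (log2 fold change 3.63 ± 0.29 (SE), BH-adjusted p = 7.1e-06). Adam8, a membrane metalloprotease of myeloid cells, rose from 42.9, 46.8 and 49.8 to 2281, 2179 and 2365 CPM (log2 fold change 5.82 ± 0.16 (SE), BH-adjusted p = 7.5e-08). All tumor libraries lay above all blood libraries for these genes; LLC tumor 1 was the highest for Fth1 and Srgn, and the tumor libraries were level for Adam8. Vim, the intermediate filament vimentin, Actg1, a cytoplasmic actin, and Pkm, the pyruvate kinase gene, were already abundant in blood and rose with log2 fold changes of 1.09, 1.22 and 1.74. Fn1, fibronectin, and Tgfbi, a matrix protein, rose by 0.93 and 1.10; Fn1 was highest in LLC tumor 2, at 7584, 11388 and 8090.0 CPM in LLC tumor 1 to 3.

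The largest losses in CPM were of genes that blood monocytes express at high level. Lyz2, lysozyme, fell from 19003, 15640.0 and 17223 to 9308, 7529 and 6898 CPM (log2 fold change -0.90 ± 0.21 (SE), BH-adjusted p = 0.0044). Cybb, the catalytic subunit of the phagocyte NADPH oxidase, fell from 2302, 2347 and 2427 to 688, 581 and 557 CPM (log2 fold change -1.73 ± 0.16 (SE), BH-adjusted p = 1.5e-05). Mpeg1, the pore-forming perforin-2, and Chil3, a secreted chitinase-like protein, fell by 1.02 and 1.08 on the log2 scale. Ptprc, the leukocyte phosphatase CD45, fell from 2355, 2526 and 2647 to 1147, 1028 and 1097 CPM (log2 fold change -0.99), Plac8 by 1.12, Samhd1, a dNTP hydrolase, by 1.34, and Adgre5, the adhesion receptor CD97, by 1.45. Psap, the precursor of the saposins, and Flna, an actin cross-linker, fell by 0.58 and 0.62. For each of these genes every tumor library lay below every blood library.

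**Figure D2:**
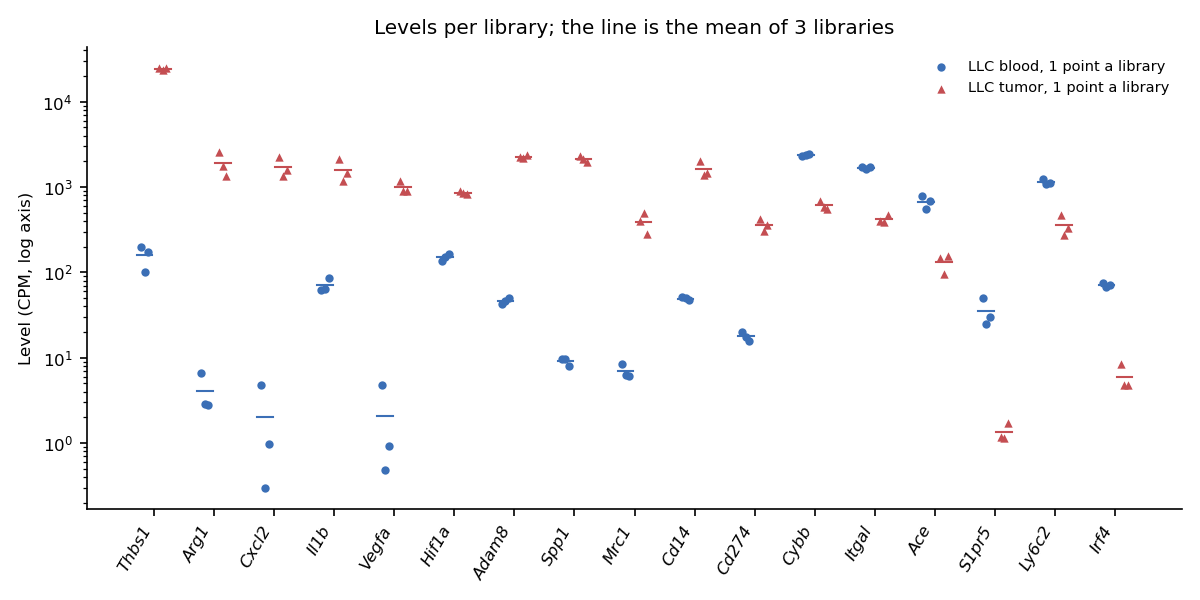
Level per library (CPM, log axis) of 17 genes described in the text, with blue circles for LLC blood, red triangles for LLC tumor and a line at the mean of 3 libraries. In none of these genes do the tumor and blood libraries overlap; the distance is widest for Cxcl2, Arg1 and Vegfa and narrower for Cybb, Itgal and Ly6c2.

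Low oxygen stabilizes the transcription factor HIF-1, which switches on glucose uptake, glycolysis and angiogenic factors. Of the 38 genes of the hypoxia and glycolysis list, 35 were called higher, 1 lower (Pfkfb4, named after its value was seen) and 2 were not called, with a median log2 fold change of 2.47 against -0.03 over all genes. The list took 0.696%, 0.688% and 0.667% of the counts in LLC blood 1 to 3 and 3.01%, 2.36% and 2.49% in LLC tumor 1 to 3 (exact permutation test of the shares, p = 0.1, the smallest that 3 against 3 can give). All tumor shares lay above all blood shares, with LLC tumor 1 the highest. Without LLC tumor 2 and 3, 36 members were called higher.

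Vegfa, the main angiogenic factor, stood at 4.78, 0.484 and 0.918 CPM in blood and 1193, 904 and 911 CPM in tumor (log2 fold change 9.36 ± 0.61 (SE), BH-adjusted p = 2e-06). Egln3, a prolyl hydroxylase that HIF-1 induces and that marks HIF for decay, went from 5.55, 3.04 and 2.75 to 519, 406 and 447 CPM (log2 fold change 7.20 ± 0.30 (SE), BH-adjusted p = 2.1e-07). Ak4, a mitochondrial adenylate kinase, went from 0.383, 0 and 0 to 47.0, 48.6 and 42.8 CPM (log2 fold change 9.08 ± 0.52 (SE), BH-adjusted p = 8.8e-07). These genes were close to undetected in blood and alike in the 3 tumor libraries. Adm, the vasodilator peptide adrenomedullin, rose by 7.68. Plod2, a collagen lysyl hydroxylase, had a different spread: at most 3 counts in each blood library and 32.6, 128 and 123 CPM in tumor (adjusted p = 2.4e-06), so that LLC tumor 1 was well below the others. Hif1a, the oxygen-regulated subunit itself, rose from 137, 153 and 163 to 897, 863 and 819 CPM (log2 fold change 2.72 ± 0.15 (SE), BH-adjusted p = 6.5e-07). Its relative Epas1, HIF-2 alpha, stood at 2.39, 2.56 and 2.51 CPM in blood and 2.17, 2.84 and 2.68 CPM in tumor (log2 fold change 0.23, adjusted p = 0.44).

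HIF binds short DNA elements with the core ACGTG or GCGTG. Promoter windows from RefSeq (GRCm38.p6), reaching from 250 bases before to 50 after each gene's start, were searched on both strands for these letters. Of the 50 windows found for 32 of the list's members called higher, 40 (80%) held a match, against 61.3% of the windows of all genes tested and 43.8% of all windows in the table. The match is common, and it is a description of these letters only. Shown for their place among the glycolytic and HIF-feedback genes are the windows of Ldha, lactate dehydrogenase A (chr7:46845554-46845853, + strand, the window of the 2 in the table with more matches), and Egln3 (chr12:54203825-54204124, - strand), 5′ to 3′ along the gene, with matches on either strand in capitals and overlapping matches merged.
Ldha: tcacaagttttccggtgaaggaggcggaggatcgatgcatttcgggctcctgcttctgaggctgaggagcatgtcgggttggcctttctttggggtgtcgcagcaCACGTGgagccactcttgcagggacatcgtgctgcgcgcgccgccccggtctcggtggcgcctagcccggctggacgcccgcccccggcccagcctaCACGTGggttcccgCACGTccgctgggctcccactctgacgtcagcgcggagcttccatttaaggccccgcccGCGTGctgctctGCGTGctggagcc
Egln3: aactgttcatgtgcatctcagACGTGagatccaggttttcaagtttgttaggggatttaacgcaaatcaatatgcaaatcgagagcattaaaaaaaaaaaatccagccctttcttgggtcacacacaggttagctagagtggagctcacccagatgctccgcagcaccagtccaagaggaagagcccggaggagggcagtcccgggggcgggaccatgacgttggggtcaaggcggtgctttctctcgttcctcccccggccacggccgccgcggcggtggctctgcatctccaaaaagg
The Ldha window held 7 matches over both strands and the Egln3 window 1. Ldha rose from 341, 348 and 353 CPM in blood to 1942, 1491 and 1586 CPM in tumor (log2 fold change 2.49 ± 0.18 (SE), BH-adjusted p = 3.3e-06), a gene chosen after its values were seen.

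Chemokines are small secreted proteins that attract leukocytes: the CXC ligands of CXCR2 draw neutrophils, and CC chemokines such as Ccl2 and Ccl7 draw monocytes through CCR2. Of 26 chemokines listed, 23 had enough counts to test. Of these, 21 (91.3%) were called higher and 0 lower, against 29.6% and 31.7% over all genes. At the floor in blood (at most 3 counts in each blood library) were 7 of the 23. These could hardly be called lower, so their direction was all but fixed. The median log2 fold change was 6.78, or 5.88 with floor genes at their bound. Cxcl3 stood at 2.52, 0.530 and 0.240 CPM in blood and 738, 799 and 628 CPM in tumor (log2 fold change 9.85 ± 0.56 (SE), BH-adjusted p = 9.1e-07), with the tumor libraries close together. Cxcl2 stood at 4.75, 0.300 and 0.968 and 2275, 1345 and 1565 CPM, with LLC tumor 1 the highest. Cxcl1 had at most 3 counts in any blood library and 94.0, 75.7 and 77.6 CPM in tumor (adjusted p = 2.1e-07). Ccl7 went from 0.765, 0.138 and 0.580 to 122, 107 and 81.0 CPM (log2 fold change 7.94 ± 0.54 (SE), BH-adjusted p = 2.3e-06). Pf4 and Ppbp, chemokines abundant in platelets, rose by 7.43 and 6.19. Of 6 platelet markers tested, these 2 were called higher, 1 was called lower and 3 were not called, and the part of platelet RNA in both values was not tested.

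Cxcl1, Cxcl2 and Cxcl3 lie close together on chromosome 5, and the NF-kB factors are known to bind sites of the form GGGNNTTTCC in their promoters. These letters, searched on both strands, stood in 4 of the 13 windows found for chemokines called higher. They stood in 1.73% of the windows of all genes tested and 1.63% of all windows in the table. The neighbours Cxcl1, Cxcl2 and Cxcl3 are among the 4, so the 4 are not independent. None of the 50 hypoxia and glycolysis windows held them. Letters this rare can be missing from 50 windows of any genes, so this is no contrast between the lists. The windows of the 3 genes are printed because they are neighbours that moved together: Cxcl1 (chr5:90890995-90891294), Cxcl2 (chr5:90903649-90903948) and Cxcl3 (chr5:90785851-90786150), all GRCm38.p6, + strand, 5′ to 3′, with matches in capitals.
Cxcl1: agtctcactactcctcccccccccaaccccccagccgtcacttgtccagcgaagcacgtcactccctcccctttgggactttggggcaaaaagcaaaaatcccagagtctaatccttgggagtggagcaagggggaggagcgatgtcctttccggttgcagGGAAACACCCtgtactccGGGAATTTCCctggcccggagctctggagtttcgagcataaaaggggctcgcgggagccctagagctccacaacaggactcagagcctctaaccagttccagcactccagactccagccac
Cxcl2: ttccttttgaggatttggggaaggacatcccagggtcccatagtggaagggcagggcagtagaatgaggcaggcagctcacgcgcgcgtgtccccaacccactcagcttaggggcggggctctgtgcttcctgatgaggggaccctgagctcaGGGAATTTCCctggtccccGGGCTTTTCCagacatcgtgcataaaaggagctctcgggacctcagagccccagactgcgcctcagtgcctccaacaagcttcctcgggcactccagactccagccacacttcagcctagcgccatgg
Cxcl3: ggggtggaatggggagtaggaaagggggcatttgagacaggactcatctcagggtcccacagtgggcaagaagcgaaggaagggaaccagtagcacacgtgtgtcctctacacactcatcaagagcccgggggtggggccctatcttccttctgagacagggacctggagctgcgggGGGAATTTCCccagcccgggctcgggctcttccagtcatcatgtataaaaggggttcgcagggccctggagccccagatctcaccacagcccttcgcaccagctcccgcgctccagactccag
The windows held 2, 2 and 1 matches over both strands.

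Of 18 cytokine genes tested, 13 were called higher and 3 lower, with a median log2 fold change of 3.77. Il1b, the precursor of interleukin-1 beta, rose from 63.0, 63.2 and 85.3 to 2161, 1186 and 1467 CPM (log2 fold change 4.75 ± 0.32 (SE), BH-adjusted p = 2.3e-06). Osm, oncostatin M, a cytokine of the interleukin-6 family, rose from 15.6, 6.02 and 4.59 to 1006, 903 and 901 CPM (log2 fold change 7.03 ± 0.44 (SE), BH-adjusted p = 1.6e-06). Tnf rose from 9.47, 7.75 and 7.15 to 129.7, 27.7 and 46.6 CPM (log2 fold change 3.37 ± 0.58 (SE), BH-adjusted p = 0.00076). LLC tumor 1 was the highest tumor library for each of them, by the widest margin for Tnf. Lif, a cytokine of the same family as Osm, rose by 5.77. Il6 and Il10 were at the floor in blood and reached 7.95, 6.47 and 6.65 and 8.67, 1.33 and 2.25 CPM in tumor (adjusted p = 4e-06 and 0.00065), so Il6 was even among the tumor libraries and Il10 came mainly from LLC tumor 1. Il1a was at the floor in blood too and stood at 94.4, 29.8 and 26.3 CPM in tumor. Il33, an alarmin known best from stromal and epithelial cells, had the reverse order, at 18.8, 80.1 and 70.2 CPM.

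NF-kB is the transcription factor family that drives inflammatory genes, and several of its targets are its own brakes. Of the 18 genes listed, 9 (50%) were called higher and 4 (22.2%) lower, against 29.6% and 31.7% over all genes (median 0.36). The largest rise was that of a brake. Tnfaip3 (A20) went from 40.5, 26.9 and 26.6 to 793, 242 and 311 CPM (log2 fold change 4.13 ± 0.51 (SE), BH-adjusted p = 9.6e-05), Nfkbia (IkB alpha) rose by 3.42, Nfkbiz by 2.62, and Zc3h12a, an RNase that degrades cytokine mRNAs, by 1.49. The adaptor Traf1 rose by 2.60.

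Immediate early genes answer growth and stress signals within minutes, and many of them encode AP-1 factors. Of the 26 listed, 24 were called higher and 1 lower, with a median of 3.00 (2.84 with floor genes at their bound). Fosl1, the AP-1 subunit Fra-1, was at the floor in blood and at 20.8, 30.7 and 31.9 CPM in tumor (adjusted p = 3.3e-07). Fosb went from 22.7, 9.06 and 11.7 to 416, 555 and 334 CPM (log2 fold change 5.14 ± 0.44 (SE), BH-adjusted p = 9.9e-06), Egr2 from 1.24, 0.623 and 0.773 to 59.6, 26.6 and 32.1 CPM (log2 fold change 5.78 ± 0.46 (SE), BH-adjusted p = 6.4e-06), and Maff, a small Maf factor, rose by 6.16. Ier3, an early response gene, rose by 5.84. All tumor libraries were above all blood libraries for these genes, with LLC blood 1 the highest blood library for Fosb, Egr2 and Maff. Without LLC blood 1, 25 of 26 were called higher.

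Heat shock genes, which encode chaperones, moved with the immediate early genes: 13 of 15 were called higher and 1 lower (median 1.01). Hsp90aa1 rose from 139, 127 and 134 to 1122, 591 and 689 CPM (log2 fold change 2.84 ± 0.29 (SE), BH-adjusted p = 3e-05), and Hsph1 and Dnajb1 rose by 2.32 and 1.21. Hspa1a rose from 419, 17.4 and 10.9 to 1920.1, 731 and 987 CPM (log2 fold change 3.30 ± 1.23 (SE), BH-adjusted p = 0.041). Its near-identical copy Hspa1b shares reads with it and gave a log2 fold change of 2.89 (adjusted p = 0.044). Both values rest on the high LLC blood 1: without it the log2 fold changes were 6.68 and 5.73, and the calls were lost without LLC blood 2, LLC blood 3, LLC tumor 1 or LLC tumor 3 (adjusted p = 0.089, 0.073, 0.08 and 0.057 for Hspa1a). Both calls were also lost in the fit of the 6 libraries alone.

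The integrated stress response and the unfolded protein response slow translation and raise chaperones and amino acid transport. Of 24 genes tested, 18 were called higher and 2 lower (median 1.36). Ppp1r15a (GADD34), which ends the translational block, rose from 73.1, 18.3 and 14.7 to 469, 319 and 306 CPM (log2 fold change 3.64 ± 0.57 (SE), BH-adjusted p = 0.00045), with LLC blood 1 the highest blood library. Hspa5 (BiP), the main chaperone of the endoplasmic reticulum, rose from 486, 544 and 538 to 1898, 1427 and 1374 CPM (log2 fold change 1.81 ± 0.21 (SE), BH-adjusted p = 6.1e-05), Slc3a2, an amino acid transporter subunit, by 3.02, Ddit3 (CHOP) by 1.82 and Atf5 by 1.64.

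Oxidant defence genes moved both ways. Of 24 genes tested, 13 (54.2%) were called higher and 9 (37.5%) lower, against 29.6% and 31.7% over all genes. The lower share was thus not far from that over all genes. The rising side held the cystine transporter Slc7a11, from 4.00, 5.08 and 4.88 to 205, 214 and 191 CPM (log2 fold change 5.64 ± 0.14 (SE), BH-adjusted p = 5.1e-08), the zinc importer Slc39a14 (log2 fold change 4.49), the metallothionein Mt1 (4.17) and the heme oxygenase Hmox1, from 114, 97.8 and 103 to 1251, 884 and 767 CPM (log2 fold change 3.44 ± 0.26 (SE), BH-adjusted p = 4.4e-06). Mt2 was at the floor in blood and at 26.0, 40.4 and 39.5 CPM in tumor. On the falling side, chosen after their values were seen, were enzymes of the pentose phosphate pathway: G6pdx fell by 1.54 and Taldo1 by 0.83. Without LLC tumor 3, 4 members were called lower, and with the 6 libraries alone 5 of 23 were.

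Matrix proteases cut collagens and elastin and free growth factors bound to them. Of 24 matrix proteases and inhibitors, 18 were called higher and 1 lower (Mmp8, a collagenase of granules, from 231, 313 and 303 to 135, 174 and 149 CPM), with a median of 3.31. Mmp12, the macrophage elastase, went from 2.10, 1.04 and 1.35 to 508, 609 and 484 CPM (log2 fold change 8.72 ± 0.52 (SE), BH-adjusted p = 1.1e-06). Mmp13, a collagenase, went from 0.478, 0.0692 and 0.290 to 163, 119 and 115 CPM (log2 fold change 9.15 ± 0.43 (SE), BH-adjusted p = 3.7e-07). Both were similar in the 3 tumor libraries. Mmp3, stromelysin-1, at the floor in blood, stood at 38.3, 115 and 165 CPM in tumor, and Adamts1 at 11.3, 64.1 and 60.6 CPM, both lowest in LLC tumor 1. Serpinb2 (PAI-2), an inhibitor of plasminogen activators, rose by 6.54.

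Of 17 coagulation and matricellular genes tested, 14 were called higher and 2 lower (median 2.43). Their share of counts went from 1.18%, 1.14% and 1.13% in LLC blood 1 to 3 to 4.39%, 4.54% and 4.39% in LLC tumor 1 to 3, most of it Thbs1 and Fn1. Spp1, osteopontin, a secreted ligand of integrins and CD44, went from 9.75, 9.68 and 8.07 to 2309.9, 2129 and 1981 CPM (log2 fold change 8.09 ± 0.52 (SE), BH-adjusted p = 1.7e-06), even across the tumor libraries. Tnc, tenascin-C, Cyr61 and Sparc were lower in LLC tumor 1 than in the others, at 29.2, 104 and 97.8, 8.76, 32.4 and 34.4 and 32.3, 172 and 160.4 CPM. F13a1, a coagulation transglutaminase typical of classical monocytes, fell from 1703, 1693 and 1809.8 to 1032, 899 and 864 CPM (log2 fold change -0.68 ± 0.15 (SE), BH-adjusted p = 0.0031).

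Growth factors and angiogenic ligands feed vessels, stroma and tumor cells. Of 16 tested, 13 (81.25%) were called higher and 1 (6.25%) lower, against 29.6% and 31.7% over all genes. The median was 5.22, or 4.55 with floor genes at their bound. Vegfa is counted in the hypoxia list and is not part of this one. Without it, the summed level of the list moved little. The sum was 896, 879 and 849 CPM in LLC blood 1 to 3. In LLC tumor 1 to 3 it was 941, 1035 and 1024 CPM, and it would be higher there with Vegfa. Of the 21 genes listed, 11 were at the floor in blood, where a gene can hardly be called lower. At the floor in only 1 of the 2 groups were 6 of the 16 tested, so part of the count was all but fixed. Inhba, the activin A subunit, went from 0.383, 0.138 and 0.145 to 56.0, 47.8 and 46.8 CPM (log2 fold change 8.13 ± 0.32 (SE), BH-adjusted p = 2.1e-07), and Pgf, placental growth factor, from 0.861, 0.415 and 0.483 to 40.3, 36.3 and 39.9 CPM (log2 fold change 6.31 ± 0.25 (SE), BH-adjusted p = 2.1e-07). Hbegf, a ligand of the EGF receptor, was at the floor in blood and at 31.6, 24.4 and 27.7 CPM in tumor (adjusted p = 4.3e-06). These 3 genes were alike in the tumor libraries. Hgf, hepatocyte growth factor, went from 13.01, 16.3 and 15.4 to 9.84, 10.3 and 10.2 CPM (log2 fold change -0.36, adjusted p = 0.0498), and its call was lost in 9 of 16 alternatives, among them DESeq2 (adjusted p = 0.12) and the fits without LLC blood 2 or 3 or without LLC tumor 2 or 3 (adjusted p = 0.12, 0.13, 0.13 and 0.13).

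The immune suppression and checkpoint list holds genes that restrain T cells, and also costimulatory genes. Of 23 tested, 20 were called higher and 1 lower, with a median of 3.37. Arg1, which depletes arginine, went from 6.69, 2.91 and 2.80 to 2581, 1756 and 1333 CPM (log2 fold change 9.15 ± 0.63 (SE), BH-adjusted p = 2.7e-06). Ptgs2 (COX-2), which makes prostaglandin precursors, went from 5.93, 0.484 and 1.01 to 2061, 1545 and 1631 CPM (log2 fold change 9.89 ± 0.70 (SE), BH-adjusted p = 3.1e-06). Cd274 (PD-L1), the ligand of PD-1, went from 20.2, 17.7 and 15.8 to 417, 306 and 355 CPM (log2 fold change 4.56 ± 0.24 (SE), BH-adjusted p = 5.9e-07). LLC tumor 1 was the highest library for all of them. In healthy blood, Arg1 stood at 15.01, 4.61 and 7.17 CPM and Cd274 at 18.2, 27.9 and 21.4 CPM. Nos2, the inducible nitric oxide synthase that also consumes arginine, stood at 0.383, 0.0692 and 0.0483 CPM in blood and 152, 228 and 216 CPM in tumor, lowest in LLC tumor 1. Nt5e (CD73), which makes adenosine, rose by 8.17, the costimulatory receptor Tnfrsf9 (4-1BB) by 6.68 and Trem1, an amplifier of inflammation, by 4.65.

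Genes of macrophages and of lipid handling rose in 20 of 27 cases and fell in 2 (median 2.72). Mrc1, the mannose receptor CD206, went from 8.42, 6.29 and 6.13 to 396, 496 and 282 CPM (log2 fold change 6.04 ± 0.29 (SE), BH-adjusted p = 3.7e-07), and C1qa, a chain of the complement opsonin C1q, from 2.01, 1.38 and 1.88 to 192, 245 and 136 CPM (log2 fold change 6.96 ± 0.46 (SE), BH-adjusted p = 2.1e-06). Abca1, which exports cholesterol, went from 9.75, 7.47 and 9.27 to 514, 472 and 409 CPM (log2 fold change 5.94 ± 0.22 (SE), BH-adjusted p = 1.6e-07), and Apoe from 325, 361 and 305 to 964, 646 and 537 CPM (log2 fold change 1.36 ± 0.26 (SE), BH-adjusted p = 0.0013). Mrc1 and C1qa were highest in LLC tumor 2 and lowest in LLC tumor 3. Cd63, a tetraspanin of lysosomes and exosomes, rose by 6.54. As to the mature macrophage markers, 6 of 9 tested were called higher and their summed level was 433, 412 and 433 CPM in LLC blood 1 to 3 and 1382, 1602 and 972 CPM in LLC tumor 1 to 3. Against them, Adgre1 (F4/80) fell from 340.0, 310.0 and 336 to 212, 196 and 164 CPM (log2 fold change -0.57 ± 0.15 (SE), BH-adjusted p = 0.0073), a call lost with LLC tumor 1 as the lone tumor library (adjusted p = 0.055), Trem2 was not called (adjusted p = 0.12), and Timd4, a marker of resident macrophages, had no count outside LLC tumor 3, where it stood at 0.0864 CPM. Cells already advanced towards macrophages and macrophages inside the gate cannot be told apart in these libraries.

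Cholesterol synthesis, uptake and efflux genes were called higher in 18 of 24 cases and lower in 2 (median 0.75; 15 and 4 with scaling by library totals). The synthesis enzymes Sqle, Lss and Fdft1 rose by 2.32, 1.68 and 1.54. Scarb1, a lipoprotein receptor, fell from 409, 429.7 and 430.0 to 81.4, 113 and 122 CPM (log2 fold change -1.82 ± 0.10 (SE), BH-adjusted p = 7.1e-07). Of 25 lysosomal genes, 9 (36%) were called higher and 7 (28%) lower, near the 29.6% and 31.7% over all genes. The sign of the list's small median (0.14) turned with library totals (-0.06) and without LLC tumor 1. Lgmn, the protease legumain, rose from 173, 177 and 184 to 1311, 869 and 846 CPM (log2 fold change 2.74 ± 0.23 (SE), BH-adjusted p = 9.7e-06), and Gla, alpha-galactosidase A, by 2.81, while Gusb, beta-glucuronidase, fell by 0.76 and Tfeb, a regulator of lysosome genes, by 0.86.

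Mitochondrial genes did not follow the glycolytic genes upwards. Of 25 genes of the tricarboxylic acid cycle and of fatty acid oxidation, 2 were called higher and 12 lower, with a median of -0.17. Cpt1a, the gatekeeper of fatty acid entry into mitochondria, fell from 326, 392 and 365 to 86.7, 137 and 115 CPM (log2 fold change -1.495 ± 0.14 (SE), BH-adjusted p = 1.6e-05), Fh1, fumarase, by 0.90 and Echs1 by 0.82. Of 32 respiratory chain subunits, 2 (6.25%) were called higher and 8 (25%) lower, against 29.6% and 31.7% over all genes. The largest fall was 0.47 (Uqcrc1). Both counts depend on the setting. With library totals, 1 higher and 23 lower were called, and without LLC tumor 1, 2 higher and 18 lower. Without LLC tumor 2, 5 higher and 5 lower were called, and without LLC tumor 3, 1 higher and 5 lower. With LLC tumor 1 alone, 8 higher and 3 lower were called, and the median log2 fold change turned from -0.14 to 0.06. Ribosomal protein genes differed little: 14 of 36 were called higher with a median of 0.24, 4 with library totals, and 6 and 9 without LLC blood 2 and 3. Rpl23, the example with the largest rise, gained 0.54. For the cell cycle, 2 of 30 genes were called higher and 2 lower; without LLC tumor 1 the counts were 6 and 1, and without LLC blood 1 they were 1 and 4.

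**Figure D3:**
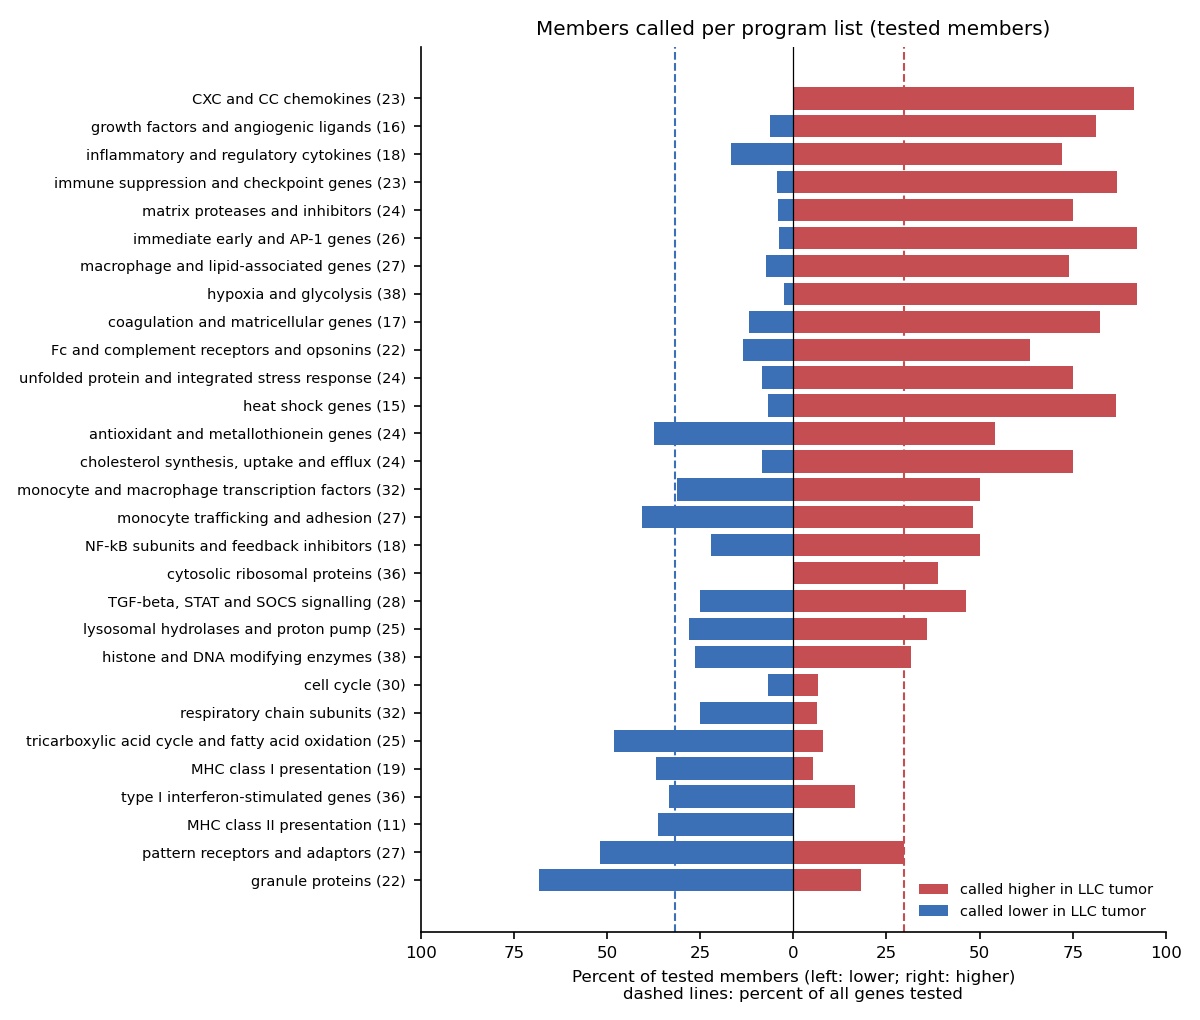
For each gene list (number of tested members in brackets), the percent of tested members called higher in LLC tumor runs to the right in red and the percent called lower to the left in blue; dashed lines mark 29.6% and 31.7%, the shares over all genes tested, and lists are ordered by their median log2 fold change. Chemokine, growth factor, hypoxia and immediate early lists lie far right of the dashed line, while granule protein and pattern receptor lists reach past it on the left. Of the tested members, 7 chemokines and 6 growth factors were at the floor in only 1 of the 2 groups.

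Blood monocytes keep transcripts of granule proteins from their bone marrow precursors. Of 22 such genes tested, 15 were called lower and 4 higher, with a median of -1.05, and their share of counts fell from 2.73%, 2.43% and 2.57% to 1.29%, 1.12% and 1.02%. Prtn3, proteinase 3, fell from 29.7, 56.9 and 46.7 to 5.15, 12.4 and 9.25 CPM (log2 fold change -2.14 ± 0.31 (SE), BH-adjusted p = 0.00027). Cd177 fell from 273, 189 and 207 to 67.4, 49.9 and 62.0 CPM (log2 fold change -1.68 ± 0.20 (SE), BH-adjusted p = 7.9e-05). The exceptions that rose included Mmp9, gelatinase B, from 1.15, 3.39 and 0.628 to 33.9, 88.4 and 46.0 CPM (log2 fold change 5.23 ± 1.01 (SE), BH-adjusted p = 0.0015), and Fpr2, a formyl peptide receptor (log2 fold change 1.39). The neutrophil marker list shares at least 1 gene with this list, so they are not independent. Its summed level was 1059, 1437 and 1285 CPM in blood and 374, 585 and 488 CPM in tumor. Of 11 neutrophil markers tested, 5 were called lower, 0 higher and 6 were not called. The part of neutrophil reads in the result was not tested.

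Leaving the blood calls for a change of adhesion molecules and receptors. Of 27 listed, 13 (48.1%) were called higher and 11 (40.7%) lower, against 29.6% and 31.7% over all genes. Among the genes of circulation, Itgal, the integrin LFA-1, fell from 1719.5, 1622 and 1723 to 397, 391 and 467 CPM (log2 fold change -1.81 ± 0.11 (SE), BH-adjusted p = 1.5e-06). S1pr5, a receptor for sphingosine-1-phosphate used in egress from bone marrow, fell from 49.9, 24.9 and 29.7 to 1.17, 1.15 and 1.73 CPM (log2 fold change -4.48 ± 0.31 (SE), BH-adjusted p = 2.8e-06). Blood and tumor libraries were wide apart for both. S1pr4 fell by 3.00 and the fractalkine receptor Cx3cr1 by 1.74. Ccr2, the receptor that brings these cells into tissue, fell from 2030.3, 2392 and 2083 to 1309, 1018 and 1031 CPM (log2 fold change -0.73 ± 0.21 (SE), BH-adjusted p = 0.012), a call lost with LLC tumor 1 as the lone tumor library (adjusted p = 0.17). In the other direction, Ccr1, a chemokine receptor, rose from 69.3, 108 and 84.1 to 634, 552 and 538 CPM (log2 fold change 2.94 ± 0.24 (SE), BH-adjusted p = 8e-06), and Cxcr4 by 1.79. Itgam, the integrin chain CD11b used in the sort, went from 1337, 1490.0 and 1490.5 to 3719.8, 3303 and 3193 CPM (log2 fold change 1.46 ± 0.15 (SE), BH-adjusted p = 2.9e-05). As a gene behind the gate, Itgam carries no finding.

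Transcription factors of monocytes and macrophages moved both ways. Of 32 listed, 16 (50%) were called higher and 10 (31.25%) lower, against 29.6% and 31.7% over all genes. The lower share was thus near that over all genes. Without LLC tumor 3, 7 were called lower, and without LLC tumor 1, 11. With LLC tumor 1 alone the median log2 fold change was 0.84, against 0.73. Ets2 rose from 6.69, 4.77 and 7.24 to 493, 327 and 315 CPM (log2 fold change 6.15 ± 0.31 (SE), BH-adjusted p = 4.9e-07), and Bhlhe40 from 45.9, 43.6 and 33.4 to 941, 666 and 662 CPM (log2 fold change 4.44 ± 0.24 (SE), BH-adjusted p = 7.2e-07). These factors were high in every tumor library. Id2 and Cebpb rose by 2.90 and 1.48. On the other side, Irf4 fell from 75.3, 68.3 and 71.5 to 8.40, 4.79 and 4.84 CPM (log2 fold change -3.36 ± 0.24 (SE), BH-adjusted p = 3.5e-06). Irf8 and Cebpa, which set monocyte fate in the bone marrow, fell by 0.77 and 0.80, and Spi1 (PU.1) by 0.53. The calls of Irf8 and Cebpa were lost with LLC tumor 1 as the lone tumor library (adjusted p = 0.16 and 0.52), and that of Cebpa also without LLC blood 1 or 3 or without LLC tumor 2 or 3 (adjusted p = 0.062, 0.082, 0.1 and 0.11).

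Among genes that averaged 20 CPM or more and whose groups did not overlap, the largest falls on the log2 scale, apart from hemoglobin genes and Irf4, were in the following genes. Nat8l, an acetyltransferase, fell from 114, 69.9 and 73.7 to 3.43, 3.72 and 4.93 CPM, Hpgd, which breaks down prostaglandins, from 72.6, 47.7 and 60.1 to 3.70, 3.37 and 4.49 CPM, and Btla, an inhibitory receptor, from 56.0, 58.0 and 55.6 to 3.16, 3.63 and 5.18 CPM. In each of them the tumor libraries lay within a narrow band at a few CPM. Il16 fell by 3.39, the transcriptional repressors Bcl11a and Cbfa2t3 by 3.21 and 3.11, and Arhgef37, Kctd12b and BC035044 by 3.27, 3.29 and 3.48. Genes of the Ly6C-low monocyte, the patrolling cell that Ly6C-high monocytes turn into in the blood, fell in 8 of 10 cases and rose in 1 (Nr4a1, log2 fold change 0.69). The Nr4a1 call was lost without LLC blood 2 or 3 or without LLC tumor 1 or 3 (adjusted p = 0.13, 0.13, 0.097 and 0.057). It was also lost in the fit of the 6 libraries alone. Ace, the angiotensin-converting enzyme, fell from 795, 549 and 688 to 146, 94.9 and 157 CPM (log2 fold change -2.14 ± 0.24 (SE), BH-adjusted p = 4.6e-05), Spn, the sialoglycoprotein CD43, by 1.91 and Treml4 by 1.77.

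Receptors that bind complement, antibodies and microbial sugars rose in 14 of 22 cases and fell in 3 (median 1.36). C3ar1, the receptor for the anaphylatoxin C3a, went from 4.40, 5.53 and 3.43 to 549, 379 and 347 CPM (log2 fold change 6.83 ± 0.32 (SE), BH-adjusted p = 3.7e-07). Clec4d, Clec4n and Clec4e, neighbouring C-type lectins that sense fungal and mycobacterial glycolipids or mannans, rose by 5.30, 5.26 and 2.78, and C5ar1, a receptor for the anaphylatoxin C5a, by 3.59. All were highest in LLC tumor 1. Of 27 pattern receptors and adaptors, 14 (51.9%) were called lower and 8 (29.6%) higher, with a median of -0.58. Over all genes 31.7% were lower and 29.6% higher, so the rising share is that of all genes. Cd14, the endotoxin co-receptor, rose from 51.4, 50.01 and 46.9 to 2009.8, 1378 and 1444 CPM (log2 fold change 5.26 ± 0.25 (SE), BH-adjusted p = 3.9e-07), and Tlr2, Tlr5, Irak2 and Nlrp3, the inflammasome sensor, by 1.83, 1.97, 1.85 and 1.93. Nod1, a cytosolic sensor of bacterial cell walls, fell from 235, 234.2 and 241 to 46.8, 54.5 and 62.4 CPM (log2 fold change -1.92 ± 0.08 (SE), BH-adjusted p = 2.1e-07). Among the endosomal receptors for nucleic acids, chosen after their values were seen, Tlr7, Tlr8 and Tlr9 fell by 1.46, 0.76 and 1.56, and the shared adaptor Myd88 by 1.22.

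The type I interferon genes had no single direction. Of 36, 6 were called higher and 12 lower, which is 16.7% and 33.3% against 29.6% and 31.7% over all genes. The counts turned on LLC tumor 1. Without it, 2 were higher and 24 lower (median -0.71); with it as the lone tumor library, 15 were higher and 9 lower (median 0.24). Without LLC blood 2 or LLC blood 3, 1 was called higher. Rsad2, viperin, stood at 49.0, 28.5 and 31.8 CPM in blood and 469, 87.8 and 216 CPM in tumor (log2 fold change 3.12 ± 0.58 (SE), BH-adjusted p = 0.0012). Oas3, a sensor of double-stranded RNA, fell from 313, 249.99 and 267 to 128, 86.7 and 131 CPM (log2 fold change -1.04 ± 0.20 (SE), BH-adjusted p = 0.0013), and Slfn5 by 1.30. Rsad2 was thus highest in LLC tumor 1, while Oas3 was below blood in all tumor libraries.

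Genes of antigen presentation to T cells were called lower at shares near the 31.7% over all genes. For MHC class II, 4 of 11 (36.4%) were called lower and 0 higher, in cells sorted as negative for the protein. Ciita, the master regulator of class II, fell from 42.5, 45.2 and 48.7 to 7.76, 8.07 and 12.01 CPM (log2 fold change -2.10 ± 0.23 (SE), BH-adjusted p = 4.1e-05), and Ifi30, a lysosomal thiol reductase, by 0.93. The class II chains themselves overlapped: H2-Ab1 was at 83.7, 50.2 and 72.6 CPM in blood and 66.8, 42.2 and 93.9 CPM in tumor (adjusted p = 0.64). For MHC class I, 7 of 19 (36.8%) were called lower and 1 higher; 11 were lower without LLC tumor 1, and 5 lower and 6 higher with it alone. The immunoproteasome subunits Psmb8, Psmb9 and Psmb10 fell by 0.69, 0.87 and 0.83. H2-Q4, a class Ib gene with close copies that share reads, rose by 0.82.

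Chromatin enzymes had shares near the background, with 12 of 38 called higher and 10 lower. The 4 that rose at least 2-fold were histone lysine demethylases: Kdm5b from 32.2, 26.98 and 29.7 to 86.5, 81.6 and 78.0 CPM (log2 fold change 1.68 ± 0.13 (SE), BH-adjusted p = 4.9e-06), Kdm3a by 1.56, Kdm6b by 1.44 and Kdm4b by 1.28. Kdm3a is counted among the hypoxia genes too. Setd1b, a methyltransferase of histone H3 lysine 4, fell by 0.96. Of 28 genes of TGF-beta and cytokine signalling, 13 were called higher and 7 lower (11 without LLC tumor 1 and with library totals). Cish, a feedback inhibitor of cytokine receptors, rose from 1.24, 1.11 and 1.21 to 40.4, 42.4 and 44.4 CPM (log2 fold change 5.35 ± 0.24 (SE), BH-adjusted p = 3.1e-07), and Smad7, an inhibitor of TGF-beta signalling, by 2.64, whereas the receptors Csf3r and Il6ra fell by 1.56 and 1.53. Csf1r, the receptor for the macrophage growth factor M-CSF, was at 2135, 1780.0 and 1907 CPM in blood and 1601, 1172 and 1235 CPM in tumor (log2 fold change -0.31, adjusted p = 0.19).

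Markers of the labelled cell type were abundant in both groups. The 12 classical monocyte markers summed to 38429.6, 34417 and 35952 CPM in LLC blood 1 to 3 and 30360.1, 30393 and 26471 CPM in LLC tumor 1 to 3, with 4 called higher and 6 lower. Ly6c2, one of the genes for the Ly6C antigen behind the gate, fell from 1237, 1099 and 1121 to 472, 272 and 328 CPM (log2 fold change -1.45 ± 0.24 (SE), BH-adjusted p = 0.00068), though its near-identical neighbour Ly6c1 can share its reads. Being behind the gate, Ly6c2 carries no finding.

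Reads of other cells were measured with marker lists. The 17 fibroblast markers summed to 519, 18.6 and 19.6 CPM in LLC blood 1 to 3 and to 1076, 4003 and 4602 CPM in LLC tumor 1 to 3; 8 were called higher and 1 lower (Acta2). Col3a1, a chain of type III collagen, made up most of the sum in the tumor libraries, at 57.2, 0.830 and 1.30 CPM in blood and 713, 2801 and 3099 CPM in tumor (log2 fold change 7.01 ± 1.49 (SE), BH-adjusted p = 0.0027). Dcn, decorin, went from 4.02, 0.277 and 0.0966 to 108, 263 and 314 CPM and Pdgfra, a fibroblast receptor, from 2.10, 0 and 0.0483 to 11.1, 39.4 and 42.9 CPM. Each was lowest in LLC tumor 1 among tumor libraries and highest in LLC blood 1 among blood libraries. Over the alternatives their log2 fold changes ran from 5.76 to 11.08 (Col3a1), 6.97 to 10.44 (Dcn) and 4.56 to 9.83 (Pdgfra). Col1a1, at 13.5, 109.7 and 129 CPM in tumor, was not called (log2 fold change 0.40, adjusted p = 0.84), since LLC blood 1 stood above every tumor library; without LLC blood 1 the list had 14 markers called higher.

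The 13 tumor and epithelial cell markers summed to 12.9, 13.5 and 12.7 CPM in blood and 95.5, 233 and 182 CPM in tumor, and 5 of 8 tested were called higher and 1 (Krt7) lower. Hmga2, a chromatin protein of embryonic and transformed cells, went from 0.669, 0.169 and 0.692 to 22.8, 118 and 94.4 CPM (log2 fold change 7.397 ± 0.72 (SE), BH-adjusted p = 2.1e-05), and the keratin Krt18 from the floor in blood to 3.97, 34.8 and 22.03 CPM (adjusted p = 7.9e-05). Both were lowest in LLC tumor 1. Cldn4 was at 0 in all 6 libraries, and Krt19 and Epcam were at 0 to 0.259 CPM. The 11 erythroid markers ran the other way, at 175, 928 and 370.4 CPM in blood and 28.8, 46.6 and 39.0 CPM in tumor, where Tfrc, the transferrin receptor that dividing and macrophage cells use too, supplied 27.5, 43.2 and 36.3 CPM. Hba-a1 and Hbb-bs, the adult globin genes, stood at 81.6, 461 and 182 and 61.3, 358 and 139.8 CPM in blood and at 0.301, 0 and 1.12 and 0, 1.52 and 1.21 CPM in tumor. NK cell markers summed to 40.3, 50.4 and 63.3 CPM in blood and 17.4, 8.42 and 7.52 CPM in tumor, with 8 of 10 called lower. In the other lists, 3 of 5 endothelial, 2 of 6 platelet, 1 of 8 dendritic cell and 2 of 3 mast cell markers tested were called higher, and 1 of 5 endothelial, 1 of 6 platelet, 2 of 9 T cell, 2 of 3 B cell and 3 of 8 dendritic cell markers lower. The endothelial list summed to 40.3, 32.0 and 33.0 CPM in blood and 43.2, 57.4 and 56.3 CPM in tumor, and the platelet list to 5.64, 9.12 and 5.43 and 223, 215 and 139 CPM. The platelet markers called higher were Pf4 and Ppbp, also members of the chemokine list, and the median log2 fold change of the platelet list was -0.23. The part of such reads in the genes described above was not tested.

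**Figure D4:**
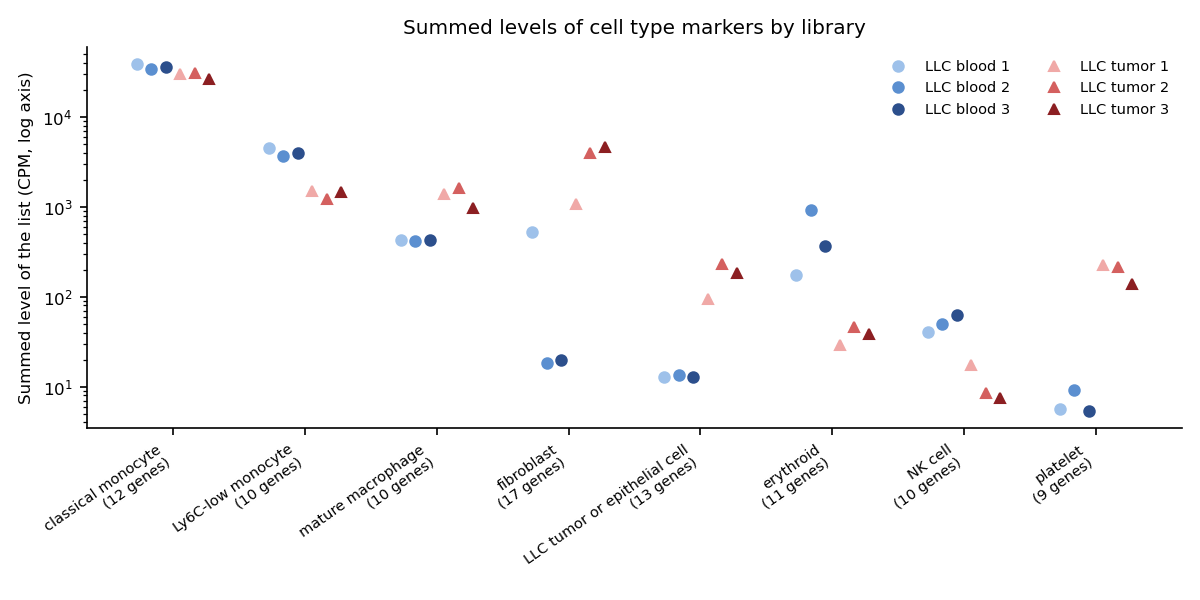
Summed level of each marker list (CPM, log axis) in the 6 libraries, with blue circles for LLC blood 1 to 3 and red triangles for LLC tumor 1 to 3, light to dark. Fibroblast and tumor cell markers are lowest in LLC tumor 1 among the tumor libraries, LLC blood 1 has 519 CPM of fibroblast markers against 18.6 and 19.6 in the other blood libraries, and every blood library has more erythroid marker reads than any tumor library.

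Since the fibroblast marker sum of LLC tumor 1 was 0.250 times the mean of the other tumor libraries, each gene's level in LLC tumor 1 was set against its mean in LLC tumor 2 and 3. This ratio was chosen after the values were seen and has no test. Over all genes tested its median was 0.819, and 16.4% of the genes lay below 0.5. Among genes called higher by less than 2-fold, 4.27% lay below 0.5. Among the 999 called at least 8-fold higher, 595 (59.6%) did, and 243 were at or above 1.

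**Figure D5:**
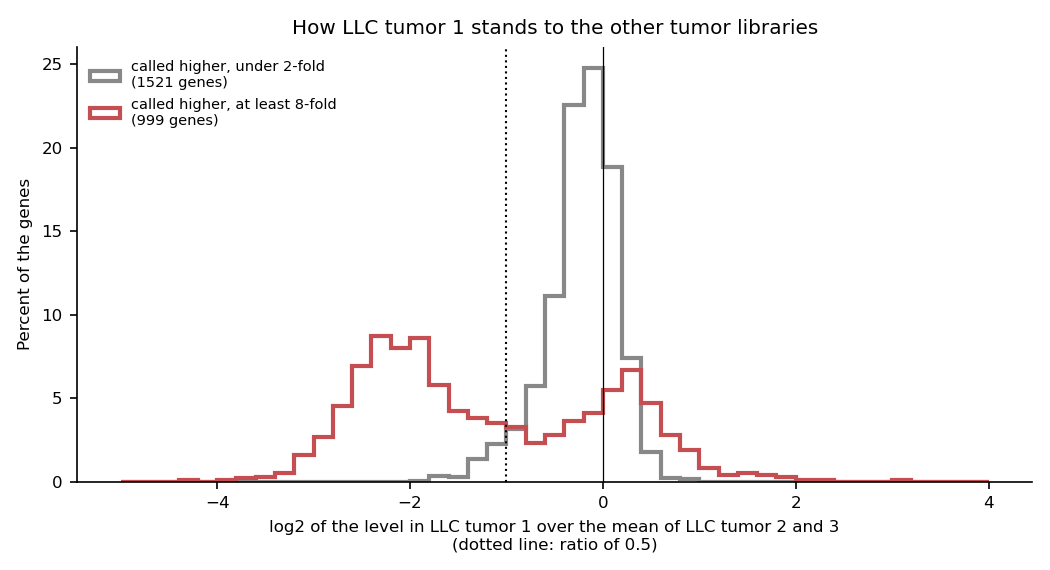
Distribution over genes of the log2 ratio of the level in LLC tumor 1 to the mean of LLC tumor 2 and 3, as percent of the genes in each class; grey, genes called higher by less than 2-fold (1521); red, genes called at least 8-fold higher (999). The grey genes form 1 peak near 0, and the red genes form 2 peaks, with 59.6% of them left of the dotted line at a ratio of 0.5.

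Genes were named from both sides of this split after their values were seen. Below 0.5, those with high tumor levels included genes of the extracellular matrix: Col3a1, Hspg2 (perlecan, at 63.6, 494 and 369 CPM in LLC tumor 1 to 3), Nid1 (nidogen, at 75.8, 412 and 363 CPM), Fbn1 (fibrillin-1, at 65.4, 297 and 302 CPM) and Dcn. At or above 1 were Thbs1, Fth1, Srgn, Adam8, Spp1, Arg1, Ptgs2, Cxcl2, Cd14 and Il1b, most of them known from activated myeloid cells. Over all 2131 genes called at least 2-fold higher, 870 (40.8%) lay below 0.5. By list, all 8 fibroblast markers called at least 2-fold higher lay below 0.5. The ratio was set up from the summed level of these markers, so their place below 0.5 gives no support. Below 0.5 also lay 3 of 5 tumor cell markers and 6 of 13 growth factors, the latter a share near that background. Of 12 coagulation and matricellular genes 4 did, and of 17 matrix protease and inhibitor genes 4. Of 35 hypoxia and glycolysis genes 1 did, of 21 chemokines 3, of 19 immune suppression genes 1, and of 19 macrophage genes 1. The mature macrophage markers had 0 of 6 below 0.5.

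Some tumor genes were all but absent from blood. In 84 genes every blood library had at most 3 counts while the tumor mean was at least 10 CPM, and the reverse was met by 1 gene, Gm14308, which was not called (edgeR adjusted p = 0.083). Of the 84, the 10 with the highest levels by the naming rule were Mmp3, Plod2, Lama5 (a laminin chain), Cxcl1, Ntn1 (netrin-1), Ddr2 (a collagen receptor), Il33, Amotl1, Rhox5 and Igf2bp2. Rhox5, a homeobox gene of reproductive tissue and of many tumor cells, stood at 12.3, 51.8 and 56.3 CPM in LLC tumor 1 to 3, and Igf2bp2, an RNA-binding protein, at 13.9, 51.1 and 54.0 CPM. Ddr2 stood at 15.3, 100.5 and 82.4 CPM and Ntn1 at 15.8, 99.2 and 90.2 CPM. In all of the 10 except Cxcl1, LLC tumor 1 was below 0.5 times the mean of the others.

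With LLC tumor 2 and 3 left out, the lone tumor library being assumed to vary like the other groups, 7253 genes were called, 6052 of them among the 7566, with 844 at least 8-fold higher and 168 at least 8-fold lower. In that fit 20 of 22 chemokines, 22 of 24 immune suppression genes and 22 of 30 macrophage genes were called higher, and 13 of 22 granule genes lower. Fibroblast markers called higher numbered 6 of 17. Thbs1 had a log2 fold change of 7.70 and Arg1 of 9.78 there, against 7.48 and 9.15 with all libraries, while Col3a1 had 5.76 against 7.01.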

How the data were processed

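RNA-seq of Ly6C-high monocytes was deposited for 9 libraries, 3 each from healthy blood, LLC blood and LLC tumors; the other 22 samples of the series were not analysed here. The authors deposited expected counts (estimated read counts, not normalized) for 24411 entries under gene symbols. The authors also deposited CPM values for 10693 genes; in every library 100% of these CPM values came out as whole reads, to within 0.05 reads. Per the submitters' processing notes, the genome build was mm10 and the tools named, with no role or order given, include STAR 2.6.1d and Salmon 1.9.0; no annotation is given in the sources used here. Of the values, 8.56% to 9.73% per library were not whole, as where reads are divided among genes. The counts had 27 symbols turned into dates and 4 entries with a duplicated symbol.

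Counts were rounded and fitted with edgeR 4.0.16 (R 4.3.3) in a single quasi-likelihood fit of all 9 libraries, by group with no other term, TMM factors and the filterByExpr filter, which kept 12337 of 18544 genes with a count. The contrast was LLC tumor against LLC blood. Benjamini-Hochberg (BH) adjustment ran over all genes tested, and calls were made below an adjusted p of 0.05. Adjusted p-values are from this edgeR fit unless another tool is named. Levels in CPM use the total of all table entries, without TMM scaling. The fit was tested on simulated data. The floor is 3 counts (0.145 to 0.287 CPM by library, counting error only), and a gene no higher than this in any library of a group gets no fold.

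Genes were named by a rule: the 12 largest rises and falls on the log2 scale among genes called, averaging 20 CPM or more and without overlap; the 10 largest gains and losses of CPM; up to 5 members per list that were called, averaged 10 CPM or more and did not overlap; the sorting markers and key genes of monocytes; genes at the floor in 1 group averaging 10 CPM or more in the other, up to 10; and cell type markers. Others were chosen after their values were seen and are marked so. The members and lists were chosen with earlier results of these data known. Alternatives changed the scaling, filter, tool (DESeq2 1.42.0, limma 3.58.1), libraries and threshold, or ran the count test on the recovered reads, which called 6792 of 10520 genes; that fit and the fit without LLC tumor 2 and 3 were added after seeing the data. Nothing in the labels says that the replicates are separate animals, so p-values measure the spread between these samples. Some genes named by the rule are not reported here.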

Additional observations from a re-analysis of the deposited data

How the results depend on the processing

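Over 16 alternatives to the count fit, 6556 to 8877 genes were called, against 7566; 0 genes called in both fits had opposite directions, and every count of genes called, higher, lower or past 2-fold or 4-fold stayed within 1.5 times. Genes past 8-fold were 1087 (999 higher, 88 lower), with 1712 (1569 and 143) without the filter on low counts; those lower were 55 with the 6 libraries alone, 58 with the recovered reads and 58 with the block, and 168 with LLC tumor 1 alone. Leaving out 1 library gave 6896 to 8636 calls. The recovered reads gave 6792 calls, limma-voom with sample quality weights 8877, and the fit of the 6 libraries alone 6692. The labels give blood and tumor libraries the same replicate numbers. Deviations of same-numbered libraries from their group means correlated at -0.08, 0.12 and -0.14, and those of differently numbered libraries at -0.14 to 0.17. With 3 libraries a side, these values cannot tell whether the numbers mark shared mice. With the replicate block, 6556 genes were called, 3366 higher and 3190 lower. The block ended the calls of Sparc, Fbn1 and Hgf (adjusted p = 0.064, 0.056 and 0.14). Of 197 genes called and named in the text, 10 lost the call under at least 1 alternative; beside those given above, with LLC tumor 1 as the lone tumor library Sparc and Fbn1 had adjusted p = 0.23 and 0.15, and with library totals Hspa1b and Nr4a1 had 0.052 and 0.084. Directions turned for genes that were not called: Col1a1 had log2 fold changes of -0.22 to 11.24 over the fits without 1 library (the highest without LLC blood 1, the lowest without LLC blood 2) and -1.94 with LLC tumor 1 alone, Csf1r 0.12 there, and Trem2 -0.031 with limma-voom. Over the fits without 1 library, Ly6c1 had -0.51 to 0.15 and H2-Ab1 -0.057 to 0.47, and H2-Ab1 had -0.021 with library totals. Counts in some lists moved by over 1.5 times: ribosomal genes called higher were 14, with 25 by DESeq2 and 33 with LLC tumor 1 alone; respiratory chain subunits called lower were 8, with 18 by limma-voom; cell cycle genes called higher were 2, with 9 by limma-voom and 8 with the block; interferon genes called lower were 12, with 22 by limma-voom. The cause was not tested. With 3 libraries a side, of which the shallowest held 10457492 counts, small changes and genes of a few CPM are the least precise.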
